A study of Homo sapiens with 6 samples.

Results

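Coding sequences (CDSs) of over 1500 codons encode the largest proteins of the cell, and 384 of the 9570 transcripts in the deposited table of ribosome occupancy belong to this class. They were selected only by the number of values in the list of in-frame CDS positions, 1 value per codon with the stop codon included, and the rule uses no measured level. The class ran from ATP7A with 1501 codons to LAMA5 with 3696 codons, with a median of 1931 codons, and 168 of the CDSs were over 2000 codons long. LAMA5 was the longest CDS with occupancy values, so any longer CDSs of these cells are not covered here.

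The samples came from HEK293, a human cell line derived from embryonic kidney, and consisted of 3 ribosome-protected fragment (RPF) libraries and 3 total RNA libraries that the labels number 1 to 3. All 6 libraries are labelled as control siRNA cells, so no treatment is compared and every comparison lies within these samples. Cells were treated with cycloheximide, which arrests elongating ribosomes, before lysis, and the RPF and total RNA libraries of one number were taken from the same lysate. The study asked how eIF4A paralogs and the Ccr4-Not complex control translation of bound mRNAs. The identity of the line was not checked with marker genes here. The study describes the preparation as repeated in triplicate without saying whether the repeats were separate cultures, so the p-values below measure the spread between these samples, which may be technical. Lysates pool all cells of a plate, so fewer cells translating an mRNA and fewer ribosomes per cell cannot be told apart.

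A ribosome that has started at the AUG must pass every codon before it reaches the stop codon, so a very long CDS holds each ribosome for longer than a short one. Ribosome profiling sequences the fragments that ribosomes protect from nuclease, and the number of fragments at a codon reflects how many ribosomes passed it and how long they stayed there. Many very long CDSs encode repeated domains such as spectrin, laminin and filamin repeats, coiled coils, and low-complexity stretches of acidic residues, serine or proline.

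The sequences below lie around the codon with the highest occupancy in 9 of these CDSs, and are shown because single codons carried a large part of the signal there. They are all those with over 5% of the occupancy in a single codon and a matched reference sequence, among CDSs with at least 1000 reads. PTPN23, BAZ2B and NHSL1 were named by a fixed rule, while the other 6 were chosen after their values were seen. Each is 27 bases of the coding strand, 5′ to 3′, with the listed codon in capitals, taken from GENCODE transcripts on GRCh37 (the build the authors name as hg19).
PTPN23, codon 35, chr3:47437639-47437665, plus strand, exon 2: ctgaagaattatGGAgagaacccagaa
BAZ2B, codon 614, chr2:160289314-160289340, minus strand, exon 9: gatgaagaggaaGATgatgaagaagaa
NHSL1, codon 518, chr6:138753916-138753942, minus strand, exon 6: caagctatgccgTATaattgtagaaac
FLNC, codon 130, chr7:128475403-128475429, plus strand, exon 2: aacctgaagctgATCctgggcctgatc
KAT6B, codon 1361, chr10:76788651-76788677, plus strand, exon 18: gaggaggaggaaGAGgaagaagaggaa
MYH14, codon 256, chr19:50728902-50728928, plus strand, exon 6: aagacagtgaagAATgacaactcctcc
HCFC1, codon 1848, chrX:153216411-153216437, minus strand, exon 23: accgtccctgacTATaaccagctgaag
VPS13A, codon 3084, chr9:79999549-79999575, plus strand, exon 69: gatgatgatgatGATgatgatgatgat
CHD3, codon 583, chr17:7800428-7800454, plus strand, exon 11: cgaaactaccagCGGaagaatgacatg
All lie inside coding exons. The windows of BAZ2B, KAT6B and VPS13A encode runs of acidic residues, aspartate and glutamate, and the other 6 do not.

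The deposited value of a codon is its RPF count, scaled by library size and divided by the mRNA abundance as TPM, a measure of transcript number scaled to the whole library, with the 3 replicates combined. It is called occupancy here. Each list covers a single transcript of its gene, which the authors chose by its abundance in total RNA. Because the smallest values of an mRNA are sums of 3 fixed amounts, each the worth of 1 read in one replicate, the reads behind each value were recovered for all 384 CDSs. These 3 amounts are called read steps. They are numbered by size within an mRNA and could not be tied to a named replicate, so ranges over the read steps are given in place of an SD. The 384 CDSs held 3399546 in-frame reads, 5.46% of those recovered, and in part estimated, over all transcripts. Depth varied widely, from 13 reads for ABCC9 to 106796 for CLTC, the clathrin heavy chain, with a median of 3868 reads or 2.00 reads per codon. A total of 308 CDSs had at least 1000 reads, and single genes are named below from these. The intervals between read steps cover the 3 combined libraries only, and the occupancy of one mRNA has no other error.

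Most codons of a typical very long CDS carried no in-frame read. The lists hold in-frame values only, and reads are meant in this sense below. The median share of codons at 0 was 54.1%, against 55.2% for CDSs of over 1000 and up to 1500 codons, 49.8% for over 500 to 1000 codons, 38.0% for over 100 to 500 codons and 43.4% for all transcripts. This share followed depth closely: it was 84.9% for the 76 CDSs below 1000 reads and 20.1% for the 38 CDSs with at least 20000 reads. The best covered CDSs were EPRS, a bifunctional tRNA synthetase, and CLTC. In both of them the longest stretch without an in-frame read was 3 codons, and 8.99% and 9.25% of their codons were at 0.

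Ribosome occupancy per codon was low in this class. The median was 0.0289 normalised RPF counts per TPM and codon, with values from 0.00169 to 0.477. The medians fell with every step in length, from 0.0999 for CDSs of up to 100 codons over 0.0524, 0.0395 and 0.0328 to 0.0289, and the median of all transcripts was 0.0450. The quartiles of the class were 0.0173 and 0.0461, so the upper quartile lay at about the median of all transcripts. Within the class itself occupancy did not follow length (Spearman correlation -0.02 across 384 CDSs, which share their libraries). The highest value belonged to MKI67, the nuclear antigen Ki-67 of dividing cells, with 0.477. It was followed by POLR2A, the catalytic subunit of RNA polymerase II, with 0.181, MDC1, a DNA damage mediator, with 0.175, and SRRM2, a splicing speckle protein, with 0.173. Among CDSs with at least 1000 reads the lowest were KIAA0100 with 0.00338, SBF1 with 0.00602 and PIEZO1, a mechanosensitive channel, with 0.00606. The genes next to the length limit varied widely. ATP7A, PTPRS and ARHGAP5, the shortest of the class with 1501, 1502 and 1503 codons, had 0.0551, 0.0238 and 0.0192. RAPGEF2, NCAPD3 and DENND4B, just outside with 1500, 1499 and 1497 codons, had 0.0242, 0.0630 and 0.00780. So few genes can neither show nor exclude a jump at the limit.

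Translational efficiency, which the authors deposited as RPFs over total RNA on a linear scale in each replicate, was available for 238 of the 384 genes in the class. The median over these was 0.260, with 0.282, 0.259 and 0.266 in replicates 1, 2 and 3, against 0.385 over all 8121 genes. Each gene was tested against the median of all genes with limma at a false discovery rate (FDR) of 0.05. Of the 238 genes, 142 were called lower (59.7%) and 62 higher (26.1%), and 34 were not called. Over all 8121 genes 44.6% were called lower and 44.7% higher, so the class held more lower and fewer higher genes than the table as a whole. A total of 89.3% of all genes passed the test in one direction or the other. The class of over 1000 and up to 1500 codons lay close by, with a median of 0.292 and 58.0% called lower. Across the 238 genes, translational efficiency did not follow CDS length (Spearman correlation -0.05) or GC content (-0.06, 227 genes), and it followed occupancy, which contains the same RPFs (0.56).

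The highest translational efficiencies of the class belonged to 5 genes whose proteins are known from the nucleus. TOP2A, the topoisomerase that separates entangled chromosomes, had 3.09, 2.56 and 2.71 in the 3 replicates, a mean of 2.79 ± 0.275 (SD, n = 3). This lay above the median gene by 2.83 ± 0.07 (SE) on the log2 scale, with an adjusted p of 2.71e-06 in limma. MKI67 had 4.68, 1.24 and 1.37, so replicate 1 stood far from the other pair. It was called higher (adjusted p = 0.00295), and without replicate 1 its mean moved from 2.43 to 1.31 and the call was kept (adjusted p = 8.88e-05 in limma). SRRM2 had 2.38, 1.85 and 1.75, and TPR, a protein of the nuclear pore basket, had 2.54, 1.65 and 1.69. SNRNP200, the Brr2 helicase that activates the spliceosome, had 1.47, 1.38 and 1.43. In all 5 genes every replicate lay above 1, while the median gene had 0.385.

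At the other end, SMARCA4, the ATPase of BAF chromatin remodelers, had the lowest translational efficiency of the class, with 0.0347, 0.0342 and 0.0369. It lay below the median gene by 3.12 ± 0.05 (SE) on the log2 scale (log2 difference -3.12, adjusted p = 1.31e-06 in limma). SBF1, a myotubularin-related pseudophosphatase, had 0.0442, 0.0491 and 0.0435. MAP3K4, a kinase of stress signalling, had 0.0552, 0.0563 and 0.0569. PTPN13, a tyrosine phosphatase, had 0.0650, 0.0567 and 0.0603, and TRIO, an exchange factor for small GTPases, had 0.0738, 0.0590 and 0.0570. The replicates of these 5 genes lay within a narrow range, and none overlapped with those of the 5 highest, as their ranking fixes. The occupancy of SMARCA4, 0.0494, did not match its rank in translational efficiency and lay above the median of the class.

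Functional groups differed in how many of their genes lay on each side of the median gene. The 13 groups hold 216 of the 384 genes, and 146 of those have a translational efficiency. The counts of every group stand beside 59.7% called lower and 26.1% called higher in the whole class. Over all 8121 genes the shares were 44.6% and 44.7%. All 6 nuclear pore genes were called higher, with a median of 0.880. They were TPR (1.96), NUP188 (1.24), RANBP2 (0.907), NUP205 (0.854), AHCTF1 (0.702) and NUP210 (0.428). NUP210 was no longer called with any replicate left out (adjusted p 0.0778 to 0.159 in limma). In RANBP2 39.2% and in AHCTF1 74.8% of 30-base stretches of the CDS also occur in transcripts of other gene entries, and the part of this in their values was not tested. Both multifunctional metabolic enzymes with a value were also called higher, namely FASN, the fatty acid synthase, with 1.16 ± 0.141 (SD, n = 3) and CAD, which starts pyrimidine synthesis, with 0.487 ± 0.0219. Of 14 genes of translation and RNA metabolism, 8 were called higher and 5 lower, with a median of 0.517. SRRM2, SNRNP200 and EPRS (1.37 ± 0.0611) led this group. Its lowest genes were EIF4G1, the scaffold of eIF4F, with 0.0742 ± 0.00226, DICER1, the nuclease that makes miRNAs, with 0.0946 ± 0.00566, and EIF2AK4, the GCN2 kinase, with 0.125 ± 0.00516.

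**Figure D1:**
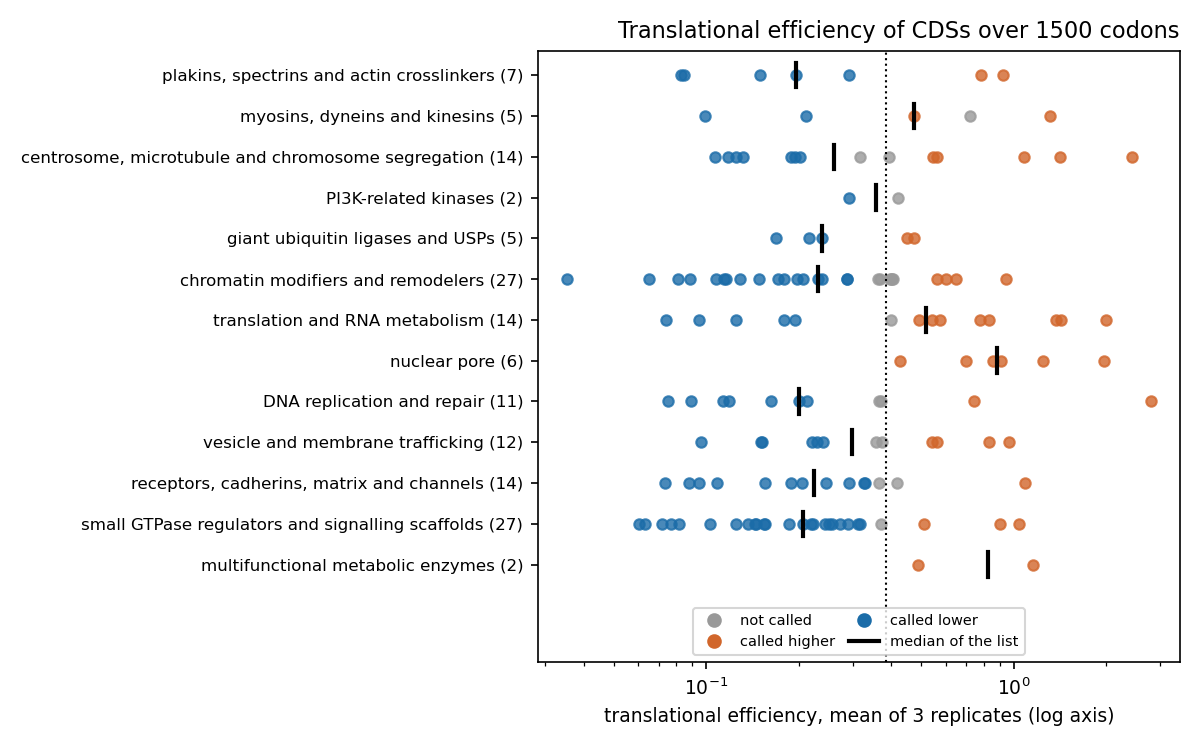
Translational efficiency (mean of 3 replicates, log axis) of each gene with a CDS of over 1500 codons, by functional group with the number of genes in parentheses. Black bars are group medians and the dotted line is the median of all 8121 genes, 0.385. All 6 nuclear pore genes lie to its right, and 23 of 27 small GTPase regulators and signalling scaffolds are called lower. In the whole class 59.7% are called lower and 26.1% higher, and over all genes 44.6% and 44.7%.

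Of 27 chromatin modifiers and remodelers 17 were called lower and 4 higher, with a median of 0.231, and the share called lower was close to the 59.7% of the whole class. After SMARCA4 the lowest were the nucleosome remodeler CHD3 with 0.0652 ± 0.00199, the histone demethylase KDM5C with 0.0809 ± 0.00312, and CHD4 with 0.0887 ± 0.0122, of whose CDS 99.2% of 30-base stretches occur in another gene entry. The 4 higher ones were the acetyltransferase EP300 with 0.940 ± 0.0910, the methyltransferase subunit SETD1A with 0.651 ± 0.112, and the demethylases KDM5A and KDM5B with 0.603 ± 0.0283 and 0.562 ± 0.0340. The paralogs KDM5A and KDM5B thus lay above the median gene and KDM5C below it.

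Signalling proteins were mostly called lower, as were 59.7% of the whole class and 44.6% of all genes. Of 27 small GTPase regulators and signalling scaffolds, a group that also holds Mediator subunits, 23 were called lower and 3 higher, with a median of 0.206. Besides PTPN13 and TRIO, the GTPase-activating protein ARHGAP5 and the exchange factor ARHGEF12 were low, with 0.0717 ± 0.00769 and 0.0768 ± 0.00510. The 3 called higher were the kinase anchor AKAP11 with 1.04 ± 0.0302, PTPN23 with 0.901 ± 0.460 and the actin scaffold IQGAP1 with 0.512 ± 0.0133. PTPN23 varied greatly, with 0.519, 1.41 and 0.773. Of 14 receptors, cadherins, matrix proteins and channels, 11 were called lower and 1 higher. In this group the guidance receptor ROBO1 was lowest (0.0735 ± 0.00119) and only LAMC1, the laminin gamma 1 chain, was called higher (1.09 ± 0.0388), while LAMB1, a laminin beta chain, was not called at 0.417 ± 0.0279. The actin crosslinker FLNA had 0.0831 ± 0.00116, and the spectrin SPTBN1 had 0.149 ± 0.00435. The adhesion linker TLN1 and the desmosome protein DSP, with 0.785 ± 0.0123 and 0.926 ± 0.123, were the 2 higher of 7 in their group.

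The remaining groups held genes on both sides of the median gene or not called. Of 14 genes of the centrosome, microtubules and chromosome segregation, 7 were called lower and 5 higher. MKI67, CENPF (1.42 ± 0.441), which binds kinetochores, and BOD1L1 (1.08 ± 0.508) were at the top, and the spindle pole protein NUMA1 (0.107 ± 0.0156) was lowest. Of 11 genes of DNA replication and repair, 7 were called lower and 2 higher. TOP2A was highest and its paralog TOP2B, at 0.364 ± 0.00536, was not called. BRCA2, a protein of homologous recombination, had 0.296, 0.155 and 0.185 and was called lower (adjusted p = 0.00609 in limma). This group also held DMXL1 and DMXL2, which are known from assembly of the proton pump, and both were called lower. Of 12 genes of membrane trafficking, 6 were called lower and 4 higher, between VPS13A, a lipid transfer protein, at 0.0962 ± 0.00992 and CLTC at 0.963 ± 0.0232. Among motor proteins, MYH9 at 1.31 ± 0.0865 and MYH10 at 0.474 ± 0.0376 were called higher, KIF21A and MYO10 lower, and CENPE was not called. CENPE had 1.32, 0.410 and 0.424, a mean of 0.718 ± 0.522 (SD, n = 3), which was 0.417 without replicate 1, where it was also not called (adjusted p = 0.156 in limma). Of 5 giant ubiquitin ligases and proteases, UBR1 and UBR2 were called higher and 3 lower, USP34 among them. Of the PI3K-related kinases, MTOR (0.290 ± 0.00767) was called lower and ATR (0.421 ± 0.0218) was not called.

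Ribosome occupancy declined along these CDSs from the start towards the stop codon. When each CDS was cut into 10 equal bins, the median occupancy relative to the mean of the same CDS was 1.12 in the first bin, 1.01 in the fourth bin, 0.924 in the sixth bin and 0.824 in the last bin. The 3 read steps gave 1.10 to 1.13 in the first bin and 0.800 to 0.823 in the last bin. CDSs of over 1000 and up to 1500 codons went from 1.03 in the first bin to 0.867 in the last bin. Counted in codons from the start, the median over very long CDSs was 1.06 up to codon 100, 1.12 from there to codon 500, 1.04 on to codon 1000 and 0.931 on to codon 1500.

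**Figure D2:**
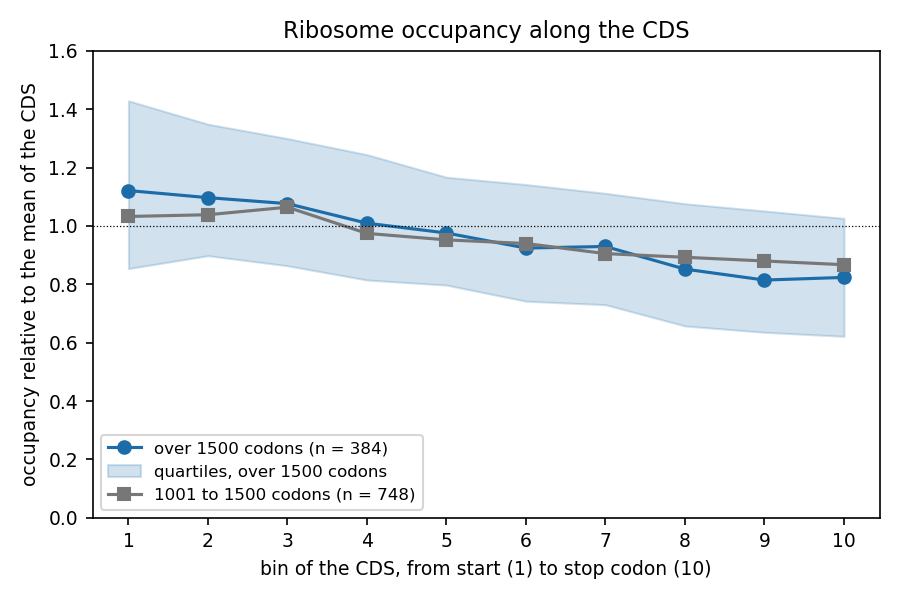
Median occupancy in 10 equal bins of the CDS from the start (1) to the stop codon (10), relative to the mean of the same CDS, for 384 CDSs of over 1500 codons (circles, shaded band from the lower to the upper quartile) and 748 CDSs of over 1000 and up to 1500 codons (squares). The circles go from 1.12 to 0.824 and the squares from 1.03 to 0.867.

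The decline was summarised as a 3′-to-5′ ratio, the mean occupancy of the later 50% of codons divided by that of the earlier 50%. Its median was 0.845 in this class, against 0.895 for over 1000 to 1500 codons, 0.956 for over 500 to 1000 codons, 1.02 for over 100 to 500 codons and 0.974 for all transcripts. In 259 of the 382 CDSs with a defined ratio in every read step (67.8%), it was below 1 in all 3 read steps. This held for 44.4% of the 9407 transcripts with such ratios. The ratio was above 1 in all 3 read steps for 62 of these CDSs, or 16.2%, against 38.6% of the 9407 transcripts. The share of CDSs with a combined ratio below 1 was similar at low and at high depth. It was 71.1% of the 76 CDSs below 1000 reads and 68.4% of the 38 CDSs with at least 20000 reads. The depth classes between them had 79.0% and 74.8%. The median ratio rose with depth, from 0.752 below 1000 reads to 0.815, 0.884 and 0.890 from 1000, 5000 and 20000 reads on. The decline was thus larger in poorly covered CDSs. The ratio followed base composition: across 364 CDSs with a matched reference sequence, the Spearman correlation was -0.52 between the ratio and the difference in GC content of the later against the earlier 50%. Where the later part was richer in GC by over 3 percentage points, the median ratio was 0.652 (107 CDSs). Where both parts lay within 1 percentage point it was 0.912, with 57 of 82 CDSs below 1, and where the later part was poorer in GC by over 3 percentage points it was 1.14 (37 CDSs). The part of base composition in the decline was not tested beyond these values.

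The steepest declines among CDSs with at least 1000 reads were found in 5 genes. FLNC, the muscle filamin, had a ratio of 0.162, with 0.151, 0.180 and 0.157 in the 3 read steps. The non-muscle myosin MYH14 had 0.169, with 0.172, 0.166 and 0.170. RERE, a transcriptional corepressor, had 0.211, and its read steps ranged from 0.190 to 0.236. PTPN23, an endosomal phosphatase-like protein, had 0.286, and DOT1L, the histone H3 lysine methyltransferase, had 0.306. In all 5 genes every read step lay far below the median of the class. In RERE, PTPN23 and DOT1L the later part was richer in GC by 13.7, 5.42 and 7.80 percentage points, while in FLNC and MYH14 the difference was -0.15 and 2.14. Their reads fell in few places. In FLNC 36.4%, 33.8% and 42.5% of the reads of the 3 read steps lay in the 50 codons that end at codon 150 and 25.3%, 25.2% and 16.5% in codons 1 to 50, and 742 of 5303 reads lay in the later 50% of the CDS. In MYH14 the 50 codons that end at codon 300 held 23.6%, 23.1% and 19.6% of the reads, and those that end at codon 550 held 18.6%, 19.7% and 19.2%.

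Ratios far above 1 were seen in 5 other genes. YLPM1, a nuclear protein that binds protein phosphatase 1, had 1.92, with 2.20, 1.70 and 1.91 in the read steps. VPRBP, the substrate receptor also called DCAF1, had 1.89. Its read steps gave 1.85, 1.88 and 1.94, but 34.3% of its reads are estimated, nearly all at 1 codon and split alike over the read steps, so these do not measure a spread. LAMC1 had 1.72, with 1.70, 1.69 and 1.76, CLTCL1, the second clathrin heavy chain, had 1.68, and QSER1 had 1.67. In VPRBP and CLTCL1 a single codon in the later part held over 30% of the occupancy, as given below. YLPM1 and LAMC1 had no such codon, and their later parts were poorer in GC, with differences of -6.01 and -4.22 percentage points.

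**Figure D3:**
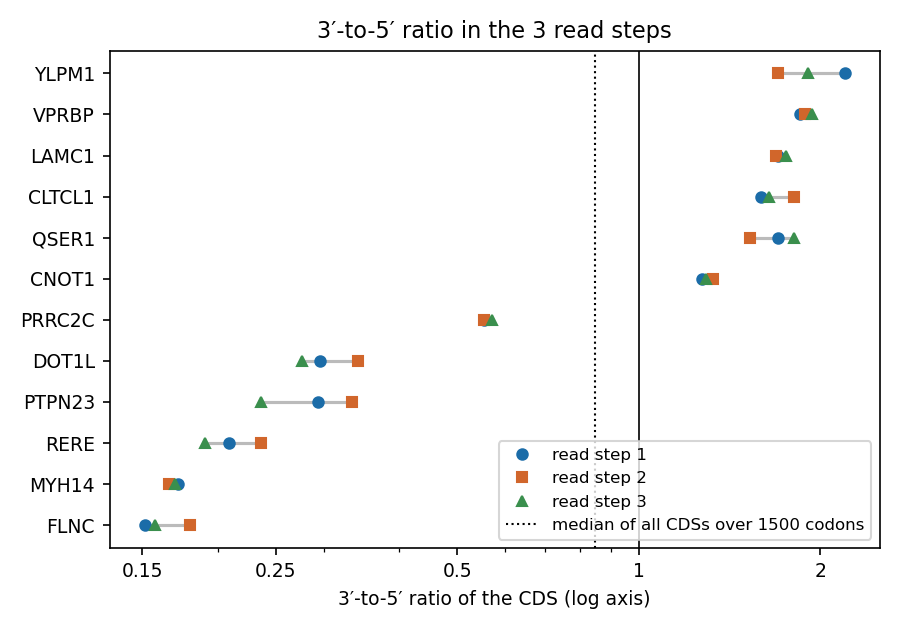
The 3′-to-5′ ratio (log axis) of the 5 lowest and 5 highest CDSs with at least 1000 reads and of PRRC2C and CNOT1, in each of the 3 read steps. The solid line marks a ratio of 1 and the dotted line the median of all 384 CDSs, 0.845. The read steps of each gene lie on 1 side of both lines, and those of VPRBP rest on a split of reads that was estimated for 34.3% of them.

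**Figure D4:**
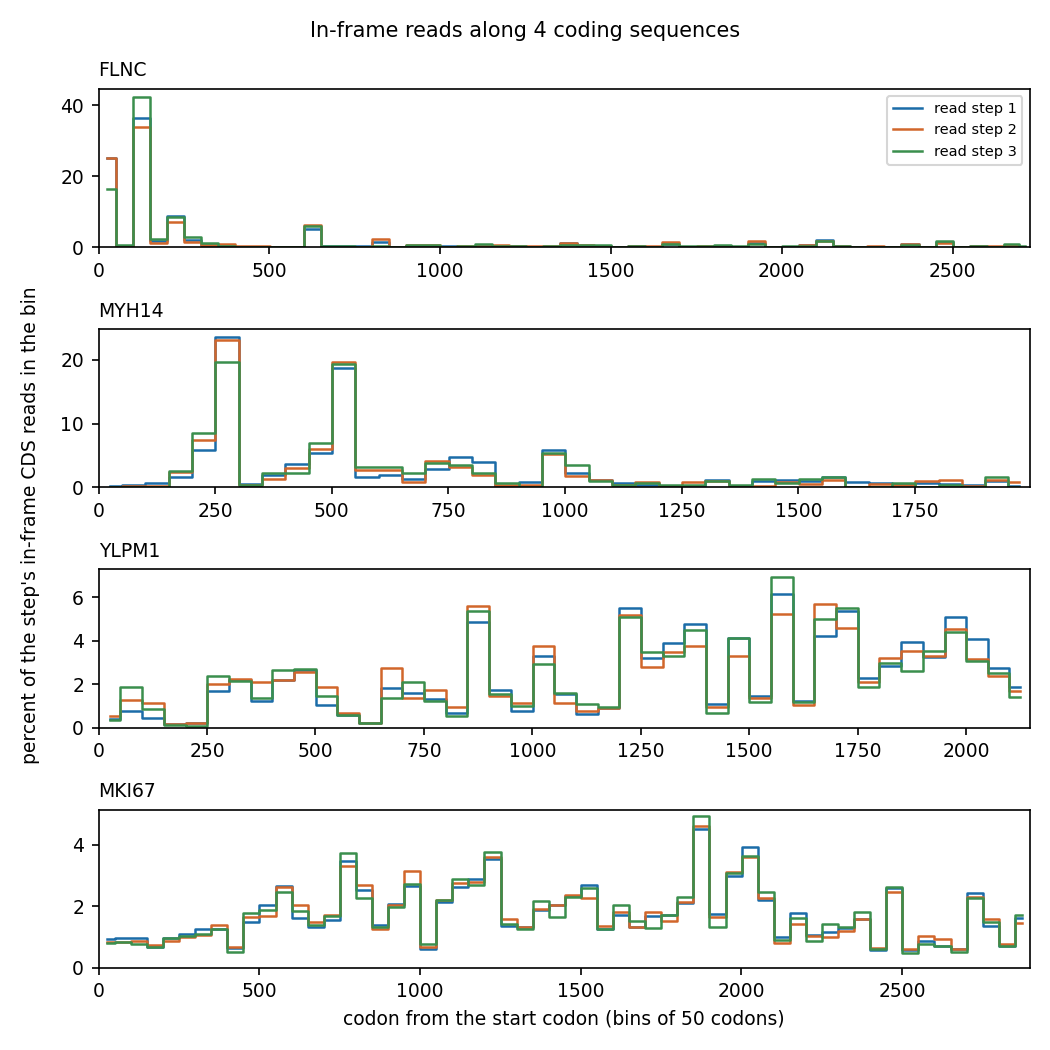
Percent of the in-frame CDS reads of each read step in bins of 50 codons along FLNC, MYH14, YLPM1 and MKI67. Reads of FLNC crowd into the first 150 codons and those of MYH14 into 2 narrow places, while in YLPM1 and MKI67 they spread over the CDS, with no bin above 6.95% and 4.91%.

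The share of occupancy in the highest codon falls with the number of codons. Its median was 1.55% in this class, 2.33% for over 1000 to 1500 codons and 4.95% for all transcripts. Relative to the mean of the same CDS, the highest codon had a median of 31.3 times, against 27.96 and 21.0 times. A total of 236 of the 308 CDSs with at least 1000 reads stayed below 2%. In 57 of the 308 CDSs the highest codon lay within the first 10% of the CDS. Over 5% in a single codon was seen in 11 of the 308 CDSs. These counts cover this class only and were not set against other transcripts. The extreme cases were VPRBP, where codon 1415 held 34.5% of the occupancy, and CLTCL1, where codon 1005 held 31.0%. The value in VPRBP was too high for its reads to be recovered, so whether each replicate holds this peak is not known. In CLTCL1 the codon had 170, 171 and 100 reads in the 3 read steps, out of 1431 reads in the whole CDS. Neither VPRBP nor CLTCL1 had a matched reference sequence. Stretches shared with other gene entries, such as CLTC for CLTCL1, were therefore not checked.

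Codon 35 of PTPN23 held 11.4% of its occupancy, with 141, 89 and 73 reads. Codon 614 of BAZ2B, a bromodomain protein, held 7.46% with 79, 64 and 38 reads, and codon 518 of NHSL1 held 7.26% with 34, 32 and 15 reads. The windows printed above belong to these codons. In these 3 CDSs the peak appeared in every read step, so it does not rest on 1 library. Among those chosen after their values were seen, codon 130 of FLNC held 6.73% (140, 86 and 113 reads) and codon 1361 of KAT6B, a histone acetyltransferase, held 6.48% (87, 38 and 21 reads). Codon 256 of MYH14 held 5.63% (45, 28 and 13 reads) and codon 3084 of VPS13A held 5.46% (272, 235 and 176 reads). Codon 583 of CHD3 held 5.05%, and codon 1848 of HCFC1, a transcriptional coregulator, held 5.60%, with its reads estimated. The glutamate run around the KAT6B codon and the aspartate run around the VPS13A codon share their 30-base stretch with transcripts of other gene entries, and the part of this in their peaks was not tested. The 30-base stretches of the other 7 windows occur in no other gene entry.

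Amino acids differed over the whole class. In 293 CDSs with at least 1000 reads and a matched sequence, each codon was compared with the mean of its CDS, with values capped at 20 times that mean and without the 15 codons at either end. Occupancy was highest where the next codon encoded glutamate (1.85 times the mean, 1.75 to 1.89 in the read steps), aspartate (1.70) or lysine (1.53), followed by isoleucine (1.40) and methionine (1.35). It was lowest before proline (0.391, 0.363 to 0.423 in the read steps), alanine (0.518), valine (0.535) and glycine (0.540). The values were close to those in 509 CDSs of over 1000 and up to 1500 codons, where the values before glutamate and proline were 1.85 and 0.388. Grouped by the residue of the codon itself, the order in very long CDSs was different. Glutamate and lysine then lay below the mean at 0.795 and 0.745, and valine and glycine above it at 1.21 and 1.08. Aspartate stayed above it at 1.25 and proline below it at 0.801.

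**Figure D5:**
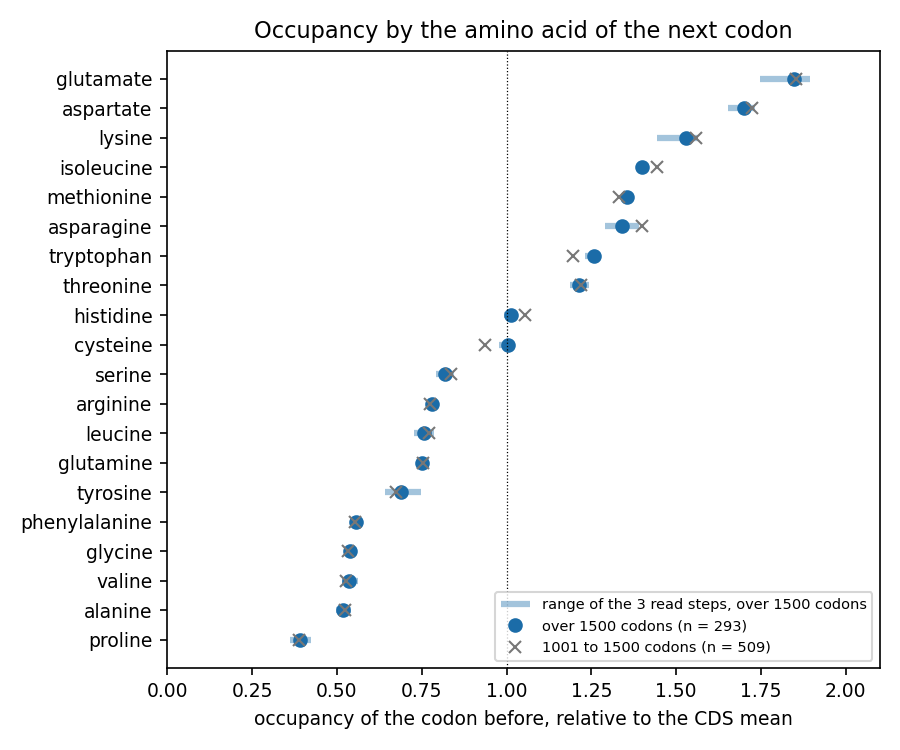
Occupancy of a codon relative to the mean of its CDS, by the amino acid encoded by the next codon, for 293 CDSs of over 1500 codons (dots, bars give the range of the 3 read steps) and 509 CDSs of over 1000 and up to 1500 codons (crosses). Glutamate, aspartate and lysine are highest at 1.85, 1.70 and 1.53 and proline is lowest at 0.391, and dots and crosses lie close together.

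Runs of such residues spanned a wider range. Codons inside runs of 4 or more acidic residues, found in 182 of the 293 CDSs, had 1.77 times the mean occupancy, and those in runs of 8 or more, found in 27 CDSs, had 2.62 times (2.47 to 2.80 in the read steps). Runs of 4 or more lysines had 1.95 times the mean. Runs of 4 or more serines had 0.408 times, runs of 3 or more prolines 0.145 times and runs of 4 or more glycines, found in 31 CDSs, 0.0988 times. GC content moved with these values. Over all codons, occupancy was 1.31 times the mean where the 27 bases around the codon held under 40% GC and 0.336 times where they held at least 60% GC. In each of the 4 GC ranges compared, occupancy before glutamate, aspartate, lysine and isoleucine lay above that before glycine, alanine and proline. The order within the first 4 residues changed with GC, and from 50% GC on aspartate lay above glutamate. Before glutamate it was 2.47 below 40% GC and 0.570 from 60% GC, and before proline 0.569 and 0.155.

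The ends of very long CDSs were covered unequally. The first 75 codons had a median of 0.974 times the mean of the CDS, against 0.940 for over 1000 to 1500 codons and 0.917 over all transcripts. For the last 75 codons the median was 0.791, against 0.873 and 0.934. The 75 codons are a larger part of a shorter CDS, and for CDSs of up to 100 codons both medians were 1. FLNC had the highest value over the first 75 codons, 8.19, followed by PTPN23 with 5.30. The part of stretches that FLNC shares with other gene entries in its value was not tested. At the opposite end PHLPP1, a phosphatase, and MYH14 had 0.00987 and 0.0130, from 1 read each in 75 codons. PHLPP1 also had the longest stretch without an in-frame read among CDSs with at least 1000 reads, codons 20 to 129. In MYH14 codons 2 to 77 had none. Over the last 75 codons BRWD1, a bromodomain protein, had 0.00900, from 1 read of 5385 in the CDS, and CNOT1 had 0.0169, from 13 reads of 16225. The part of other isoforms of a gene in such empty ends was not tested. VPS13A had 3.49, with 1061 of its 12964 reads, a window that holds the aspartate run printed above.

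Reads in the 5′ untranslated region (5′UTR) and in frame with the CDS were more frequent relative to the CDS in this class. The median ratio of 5′UTR to CDS occupancy was 0.0664, against 0.0495 for over 1000 to 1500 codons and 0.0286 for all transcripts, and 77 of the 384 mRNAs had no 5′UTR read. Among CDSs with at least 1000 reads, 6 had a ratio above 1, and neither count was set against other transcripts. FOCAD had the highest, 2.22, from 432 reads in 118 codons of 5′UTR. It was followed by CPS1, the first enzyme of the urea cycle, with 2.20 from 46 reads in 24 codons, and by ZDBF2 with 1.77 from 156 reads in 99 codons. FOCAD was also called lower in translational efficiency (0.147, 0.129 and 0.145, adjusted p = 1.26e-05 in limma). CPS1 and ZDBF2 are among the genes of the class for which no translational efficiency was available.

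The 10 longest CDSs showed how varied the class is. They were LAMA5 with 3696 codons, the ubiquitin protease USP34, BRCA2, the centrosome protein PCNT, the Golgi tether GOLGB1, the remodeler SRCAP, RANBP2, C5orf42, the polymerase zeta subunit REV3L and CENPF. Reads ranged from 1794 in LAMA5 to 54761 in CENPF. RANBP2 had a 3′-to-5′ ratio of 1.01, and LAMA5 had 0.986, whereas PCNT had 0.532, with 0.504 to 0.576 in the read steps. REV3L had 0.651 and SRCAP 0.634, and 93.9% of 30-base stretches of SRCAP occur in other gene entries. RANBP2 and CENPF were called higher in translational efficiency. LAMA5 was called lower (0.348, 0.329 and 0.307, adjusted p = 0.0151 in limma), but not without replicate 2 or 3 (adjusted p = 0.0511 and 0.0942). GOLGB1 was called lower with 0.338, 0.157 and 0.165 (adjusted p = 0.0157 in limma), and was not called without replicate 2 (0.0619) or 3 (0.0506).

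CNOT1, the scaffold of the Ccr4-Not complex, was itself a member of the class. Its translational efficiency was 0.204, 0.190 and 0.188, lower than the median gene by 0.95 ± 0.05 (SE) on the log2 scale (log2 difference -0.95, adjusted p = 3.28e-05 in limma). Its 3′-to-5′ ratio was 1.30, with 1.27, 1.33 and 1.29 in the read steps, although its last 75 codons were nearly empty. The list covers a single CNOT1 transcript with 1552 codons, and the part of other isoforms in these values was not tested. PRRC2C, a protein of stress granules, had 0.688, 0.423 and 0.512 and was called higher (adjusted p = 0.0251 in limma). Its 3′-to-5′ ratio was 0.561, with 0.553 to 0.571 in the read steps. Its 5′UTR to CDS ratio was 0.326, from 464 reads, against 0.181 from 204 reads for CNOT1.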

How the data were processed

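RPFs and total RNA of HEK293 cells, both depleted of rRNA, were sequenced in 3 replicates each. The authors aligned RPFs to the hg19 transcriptome and assigned fragments between 28 and 30 nt to codons using a 13 nt offset. The submitters' processing notes list cutadapt 1.16, Bowtie 1.1.2, TopHat2 2.1.1 and HTSeq 0.9.1. The deposited occupancy lists hold counts normalised for library size and divided by TPM, with replicates combined. The deposited translational efficiency is a linear ratio (formula: not stated).

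Of 31 lists broken over lines and rejoined, 30 lost a value at the break, which was set to missing. Read steps were recovered from values up to 60 times the smallest, and 51 of 356617 values above 0 in the 384 CDSs exceeded 1000 times the smallest step and were estimated (1.63% of reads). On 400 simulated transcripts the search gave the right steps for all. For translational efficiency, limma 3.58.1 (R 4.3.3) compared log2(value + 0.01) of each gene with the median over all 8121 genes. P-values were adjusted by Benjamini and Hochberg, without a filter. The replicate number is part of the deposited ratio, which is taken within a lysate. Reference sequences (GENCODE 44 on GRCh37) were matched by symbol and CDS length for 372 of 384 CDSs, with 1 sequence for 364. Genes were named by rank of length, translational efficiency, 3′-to-5′ ratio, share in a codon and 5′UTR ratio, by functional group, and for CNOT1 and PRRC2C. The class and the groups were chosen with earlier results of these data known. Some genes are not reported here.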

Additional observations from a re-analysis of the deposited data

How the results depend on the processing

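The counts of genes called in translational efficiency changed little: 204 in all, 62 higher and 142 lower. They were 204, 62 and 142 with a replicate block, and leaving out each replicate gave 197 to 201 in all. With the mean of all values as centre, 49 were higher and 162 lower. The median translational efficiency was 0.257 to 0.269 without each replicate and 0.239 for CDSs over 2000 codons.

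The median 3′-to-5′ ratio, 0.845, stayed below 1. It was 0.839 with codons capped at 20 times the mean, 0.835 without the highest codon, 0.853 with at least 1000 reads, 0.830 over 2000 codons and 0.839 to 0.849 without each read step, and 0.912 for parts within 1 percentage point of GC (an alternative chosen after seeing the data, like the read steps). Occupancy was 0.0318 with at least 1000 reads and 0.0281 to 0.0294 without each read step. The last 75 codons gave 0.776 when the window ended 5 codons earlier, 0.781 with at least 1000 reads and 0.776 to 0.790 without each read step. The share of codons at 0 was 47.0% with at least 1000 reads and 58.9% to 63.2% without each read step, which leaves fewer reads. The 5′UTR ratio was 0.0586 without the 5 codons next to the start. The first 75 codons moved from just below to just above the mean of the CDS: 0.974, 1.01 with the window starting at codon 6, 0.958 with at least 1000 reads and 0.955 to 1.00 without each read step. No call changed its direction. The 76 CDSs under 1000 reads limit what can be read from single codons.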

Other observations

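Replicate 1 had the highest translational efficiency of the 3 in 147 of the 238 very long CDSs (61.8%), in 46.7% of the 469 CDSs of over 1000 and up to 1500 codons and 34.1% of all 8121 genes, while replicate 2 was highest in 9.24%, 16.4% and 27.6%. The median over the 238 genes was 0.282 in replicate 1, 0.259 in replicate 2 and 0.266 in replicate 3. Over the 469 it was 0.305, 0.276 and 0.297, and over all genes it was 0.382, 0.380 and 0.388. In MKI67, CENPF, GOLGB1 and BRCA2 replicate 1 was also highest, at 4.68, 1.93, 0.338 and 0.296 with the others at 1.24 and 1.37, 1.17 and 1.16, 0.157 and 0.165, and 0.155 and 0.185. The difference between replicates was not tested.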
